A study of Mus musculus with 2 samples.

Results

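Neutrophil-like granulocytic cells were taken from single-cell RNA-Seq of leukocytes of Lewis lung carcinoma (LLC) tumors by a rule on their RNA. A cell was a member when at most 10% of its unique molecular identifiers (UMIs, each 1 captured RNA molecule) came from mitochondrial genes, S100a8 and S100a9 together made up at least 1% of its UMIs, Csf3r, Cxcr2, Retnlg and G0s2 together had at least 3 UMIs, and C1qa, C1qb and C1qc together had at most 5 UMIs. The rule gave 109 of 5167 cells, 37 of 2449 in the library labelled wt and 72 of 2718 in the library labelled cko. The members were chosen by these measured values, so the levels of these genes in gated cells are given as description. The gated cells nearest the S100 limit had 1.33% in wt and 1.74% in cko, and the nearest cells below it had 0.978% and 0.918%. For the other limits, the nearest values inside and outside were 3 and 1 UMIs (wt) and 3 and 2 UMIs (cko) of the 4 granulocyte genes, and 4 and 13 (wt) and 5 and 6 (cko) C1q UMIs.

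Neutrophils are short-lived granulocytes that the bone marrow releases in response to G-CSF, whose receptor is encoded by Csf3r, and that enter tissue along gradients of CXC chemokines read by CXCR2. Their cytoplasm is rich in the calcium-binding pair S100A8 and S100A9. Granule proteins such as lactoferrin (Ltf), cathelicidin (Camp) and neutrophilic granule protein (Ngp) are transcribed in marrow precursors and shut down before release, while chemokines and IL-1β are transcribed in mature cells after activation. In tumors, cells with this RNA are often called granulocytic myeloid-derived suppressor cells (MDSCs), a name that the markers used here cannot separate from neutrophils.

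LLC, a mouse lung carcinoma line, was implanted under the skin of C57BL/6 mice, aged 10 weeks per the labels although the design text gives another age at implantation, and CD45+ cells were sorted from the tumors on day 14. Control mice were miR-21fl/fl, with both miR-21 alleles flanked by loxP sites, and LysMCre;miR-21fl/fl mice carried the same floxed alleles plus Cre recombinase in the Lyz2 locus, which deletes miR-21 in macrophages, monocytes and granulocytes rather than in neutrophils alone. Cells of 3 mice were pooled for each genotype and loaded as 1 droplet library (10x Genomics 3′ chemistry), so there is 1 library per group, no replicate and no test between genotypes. The titles wt and cko set the groups. The source descriptions assign the genotypes the other way round, and the protocol text speaks of sorted tumor macrophages from miR-21 null mice. The libraries are therefore named by their titles. Every interval below is an exact 95% interval that covers counting error alone, and mouse, pool and library cannot be told apart from genotype.

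The row for Mir21a, the deleted gene, was not analysed here. Lyz2 (ENSMUSG00000069516), the lysozyme gene into which Cre is inserted, was lower in the library labelled cko in every class, lymphocytes included. In C1q macrophages it was at 16029 CPM (UMIs of a gene as counts per 1000000 UMIs of its class) in wt and 7316 CPM in cko. Lyz1, a second lysozyme gene, was higher in cko there, at 37.8 and 247 CPM. What sets these levels was not tested. The classes used for comparison were C1q macrophages (at least 20 C1q UMIs), lymphocytes (at least 3 UMIs of Cd3e, Cd3d, Cd3g, Ncr1, Klrb1c and Cd79a and at most 5 of C1q) and Ly6c2 monocytes (at least 3 Ly6c2 UMIs and at most 5 of C1q), all outside the gate. The 2 libraries held 24492486 and 27163485 UMIs, with medians of 8359 and 8247 UMIs per cell. No cell had fewer than 3184 UMIs in wt or 3187 in cko, a floor that was in place in the matrices as analysed. The libraries shared 5 cell barcodes, none of them in gated cells.

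The sequences that the results turn on are printed first. S100a8 and S100a9 lie beside each other on chromosome 3 and head the rule. Ngp and Ltf lie on chromosome 9 and were concentrated in 2 cells. Cxcl2 and Cxcl3 are CXC chemokine genes of 1 cluster on chromosome 5, and they differed in their ratio between the libraries. Promoters run from 250 bases before to 50 bases after the start of the gene, 5′ to 3′ on the strand of the gene, from RefSeq (GRCm38.p6). In the first 4 promoters, capitals mark matches on either strand to TTNNGNAA, a loose form of the site bound by C/EBP factors, which are central to granulocyte development. That motif was found in 40.7% of 27025 promoters of the same length. A match is a description of letters and not a binding site.
S100a8 promoter (chr3:90668821-90669120, plus strand): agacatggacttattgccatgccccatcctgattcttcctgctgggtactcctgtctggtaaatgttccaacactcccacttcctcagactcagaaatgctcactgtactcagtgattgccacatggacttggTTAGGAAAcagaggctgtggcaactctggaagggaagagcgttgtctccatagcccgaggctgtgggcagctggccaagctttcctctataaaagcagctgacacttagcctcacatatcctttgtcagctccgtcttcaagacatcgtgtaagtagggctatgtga
S100a9 promoter (chr3:90695672-90695971, minus strand): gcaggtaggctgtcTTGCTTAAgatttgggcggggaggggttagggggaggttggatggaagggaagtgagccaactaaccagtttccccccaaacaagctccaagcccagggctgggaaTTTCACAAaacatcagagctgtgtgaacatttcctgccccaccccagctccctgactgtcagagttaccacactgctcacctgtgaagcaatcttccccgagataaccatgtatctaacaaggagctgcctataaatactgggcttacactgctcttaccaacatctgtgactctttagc
Ngp promoter (chr9:110419558-110419857, plus strand): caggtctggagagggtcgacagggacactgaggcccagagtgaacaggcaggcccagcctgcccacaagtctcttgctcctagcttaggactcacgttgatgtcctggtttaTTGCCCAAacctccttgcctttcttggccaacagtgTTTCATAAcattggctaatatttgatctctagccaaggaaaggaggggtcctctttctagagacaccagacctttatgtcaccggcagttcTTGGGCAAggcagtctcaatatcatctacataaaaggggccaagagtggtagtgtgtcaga
Ltf promoter (chr9:111019042-111019341, plus strand): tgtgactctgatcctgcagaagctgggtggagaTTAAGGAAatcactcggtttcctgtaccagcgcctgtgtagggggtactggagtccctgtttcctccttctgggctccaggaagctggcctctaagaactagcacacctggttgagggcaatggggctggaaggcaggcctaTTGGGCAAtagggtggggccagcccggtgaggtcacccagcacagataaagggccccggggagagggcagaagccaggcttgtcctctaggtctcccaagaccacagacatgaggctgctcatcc
In the 2 chemokine promoters, capitals mark matches on either strand to the frame of sites bound by NF-κB, the letters GGG and CC with any 5 bases between them, which was found in 50.4% of promoters. Overlapping matches run together as 1 block of capitals.
Cxcl2 promoter (chr5:90903649-90903948, plus strand): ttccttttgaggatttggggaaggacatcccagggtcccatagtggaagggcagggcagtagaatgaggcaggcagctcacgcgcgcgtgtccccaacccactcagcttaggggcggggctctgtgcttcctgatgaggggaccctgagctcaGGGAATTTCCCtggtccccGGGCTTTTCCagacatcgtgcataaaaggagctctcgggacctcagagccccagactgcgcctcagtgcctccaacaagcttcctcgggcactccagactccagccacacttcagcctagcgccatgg
Cxcl3 promoter (chr5:90785851-90786150, plus strand): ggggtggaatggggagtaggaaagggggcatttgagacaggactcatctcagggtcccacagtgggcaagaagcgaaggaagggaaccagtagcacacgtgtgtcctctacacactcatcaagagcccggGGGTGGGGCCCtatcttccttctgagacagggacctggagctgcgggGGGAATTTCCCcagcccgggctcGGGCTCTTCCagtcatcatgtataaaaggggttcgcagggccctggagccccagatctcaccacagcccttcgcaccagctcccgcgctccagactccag
The mature microRNA deleted in the LysMCre mice is shown with its seed, bases 2 to 8, in capitals. It lies within the annotated span of Vmp1 on the same strand.
miR-21a-5p (chr11:86584120-86584141, minus strand): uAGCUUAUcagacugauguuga
The S100a8 promoter held 1 match to the first motif, S100a9 held 2, Ngp held 3 and Ltf held 2. The Cxcl2 promoter held 3 matches to the second motif and the Cxcl3 promoter held 5.

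The gate held 2 kinds of cell, which were separated after the values had been seen. S100-high cells had at least 15% of their UMIs from S100a8 and S100a9 and at most 2 UMIs of Ccr2, F13a1 and Csf1r together, and S100-low cells were the rest. The S100-high cells numbered 17 in the library labelled wt and 52 in the library labelled cko, and the S100-low cells numbered 20 in each. The share of S100a8 and S100a9 in S100-high cells ran from 17.4% to 34.3% with a median of 24.9% in wt, and from 17.3% to 42.9% with a median of 25.6% in cko. In S100-low cells it ran from 1.33% to 19.0% with a median of 4.47% in wt, and from 1.74% to 10.1% with a median of 5.10% in cko. The S100-high cells were shallow, with medians of 3285 and 3712 UMIs and 842 and 878 genes, against 7826 and 8822 UMIs in S100-low cells. Cells nearest the 15% limit had 17.4% and 17.3% inside it and 12.5% and 10.1% outside.

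**Figure D1:**
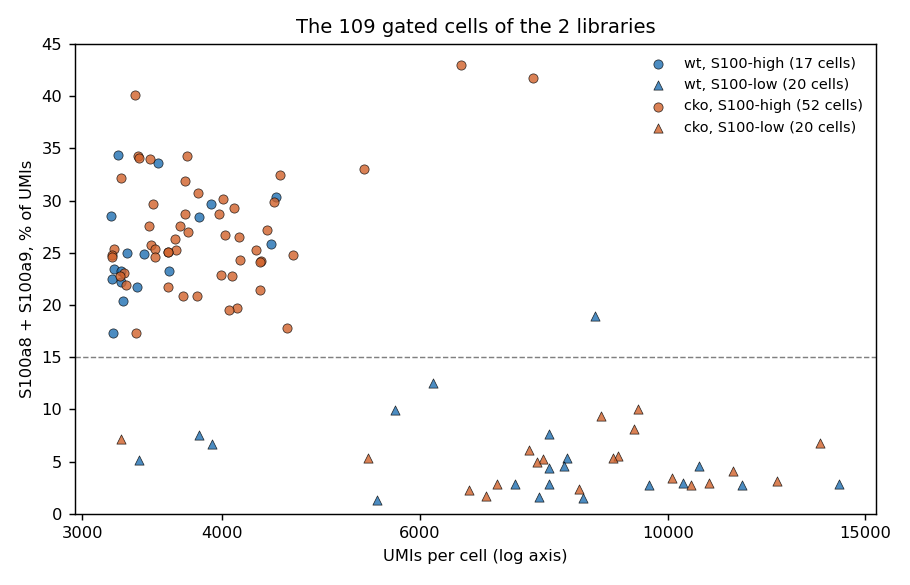
Each point is 1 of the 109 gated cells, with UMIs per cell on a log axis (x) and the share of UMIs from S100a8 and S100a9 in percent (y); colour gives the library, circles are S100-high cells and triangles S100-low cells, and the dashed line is at 15%. The S100-high cells sit close to the lowest UMI count kept, and the wt cell above the line among the triangles has 19.0% and carries monocyte genes.

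The neutrophil label held for the S100-high cells by a marker that no rule used. Ly6g, which encodes the Ly6G surface antigen that defines mouse neutrophils, had a UMI in 13 of 17 wt and 43 of 52 cko S100-high cells. After every cell was thinned to 3000 UMIs, the shares with a Ly6g UMI were 76.5% (95% interval 50.1 to 93.2) and 80.8% (67.5 to 90.4), against 0 of 207 lymphocytes in wt, which allows a share of up to 1.45% (3 counts of the total), and 1.24% of lymphocytes in cko, at lymphocyte medians of 6219 and 6915 UMIs. Cxcr2, Ccr2 and F13a1 are used by the gate or the subset rule and give no further check of the label. At least 3 UMIs of 5 monocyte genes (Ly6c2, Ccr2, F13a1, Ms4a4c and Csf1r) were found in 5 and 13 S100-high cells, with Ly6c2 at 555 and 474 CPM.

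The label did not hold as a whole for the S100-low cells. Ly6g, which no rule used, was seen in 3 and 6 of the 20 cells. Ccr2, part of the subset rule and given as description, was seen in 18 of 20 cells in each library, at 581 and 612 CPM. At least 3 UMIs of the same 5 monocyte genes, which include Ccr2, F13a1 and Csf1r of the subset rule, were found in 17 and 19 cells. That limit was also met by 138 of 207 wt and 126 of 242 cko lymphocytes, so it separates cell types poorly. The antigen presentation gene Cd74 reached 11732 and 8252 CPM in S100-low cells against 252 and 293 CPM in S100-high cells. At least 3 UMIs of lymphocyte genes were found in 4 wt and 1 cko S100-low cells and in no S100-high cell. These cells are therefore called by their rule, and not as neutrophils.

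The genes that set S100-high cells apart from S100-low cells in both libraries are given as description, since the subsets were cut from the same RNA. Beside Ngp and Ly6g they included Cd177, a neutrophil surface protein, at 319 CPM in wt and 465 CPM in cko against 12.8 and 22.9 CPM in S100-low cells. Prok2, a secreted chemotactic peptide of neutrophils, was at 2572 and 3100 CPM against 198 and 349 CPM. Pglyrp1, a peptidoglycan recognition protein of granules, was at 2841 and 2821 CPM against 473 and 303 CPM. The matrix protease gene Mmp9 was at 1008 and 782 CPM against 115 and 160 CPM. On the other side, the membrane proteins Ms4a4c and Ms4a6c were at 1188 and 1169 CPM in wt S100-low cells, against 0 and 50.4 CPM in wt S100-high cells.

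**Figure D2:**
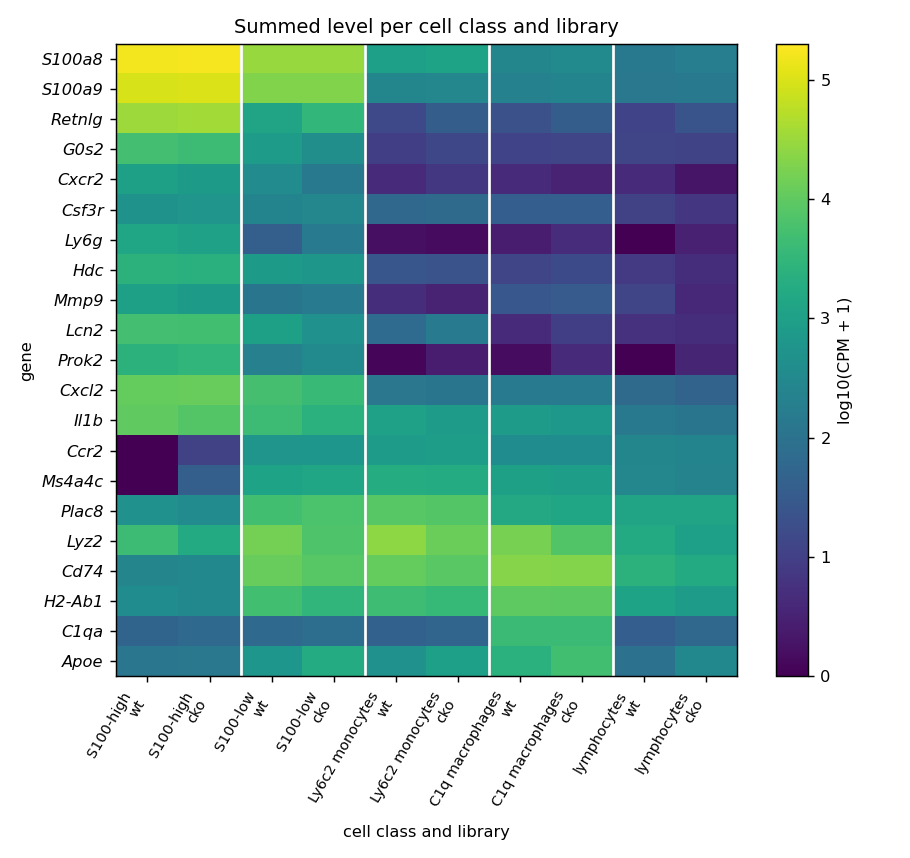
Rows are genes and columns are cell classes in each library; colour is log10(CPM + 1) of the UMIs summed over the cells of a class. The neutrophil genes from S100a8 to Prok2 are highest in S100-high cells, and Ccr2, Ms4a4c and Plac8 in S100-low cells are less than 2-fold below their levels in Ly6c2 monocytes.

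The genes that led the gated cells were ranked by their ratio to cells outside the gate, so that low levels outside were part of the choice. Among genes seen in at least 25% of gated cells and not used by the rule, the highest ratios of gated to other kept cells were those of Ngp, BC100530 (a stefin family gene), Prok2 and the Mas-related receptor genes Mrgpra2b and Mrgpra2a. Prok2 was at 0.478 CPM in wt and 3.54 CPM in cko C1q macrophages. Retnlg, which encodes a resistin-like secreted protein and is part of the rule, was at 32725 and 36346 CPM in S100-high cells against 19.3 and 34.9 CPM in C1q macrophages. S100a8, the most abundant transcript, was also found in cells that should lack it, at 136 CPM in wt and 185 CPM in cko lymphocytes, where 29.5% and 43.4% of thinned cells had a UMI.

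S100-high cells made up a larger share of the library labelled cko. The gated cells were 1.51% (1.07 to 2.08) of 2445 kept wt cells and 2.66% (2.09 to 3.34) of 2704 kept cko cells, a ratio of 1.76 (1.17 to 2.69). S100-high cells were 0.695% (0.406 to 1.11) in wt and 1.92% (1.44 to 2.51) in cko, a ratio of 2.77 (1.57 to 5.10). S100-low cells were 0.818% and 0.740%, a ratio of 0.904 (0.462 to 1.77). For comparison, the ratio was 0.877 (0.779 to 0.988) for Ly6c2 monocytes, 1.14 (1.03 to 1.25) for C1q macrophages and 1.06 (0.874 to 1.28) for lymphocytes. S100-high cells were 45.9% of the gated cells in wt and 72.2% in cko.

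Depth moved with this difference. Of the S100-high cells, 15 of 17 in wt and 32 of 52 in cko had fewer than 4000 UMIs, close to the lowest count kept. At 4000 UMIs or more, 2 wt and 20 cko S100-high cells remained, a ratio of 8.94 (2.17 to 78.9), and at 5000 or more there were 0 and 3. The 0 of 2115 wt cells allows a share of up to 0.142%, again as 3 counts of the total. Fewer S100-high cells and fewer UMIs per S100-high cell cannot be told apart below the lowest count kept, and the part of the depth limit in the share was not tested.

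**Figure D3:**
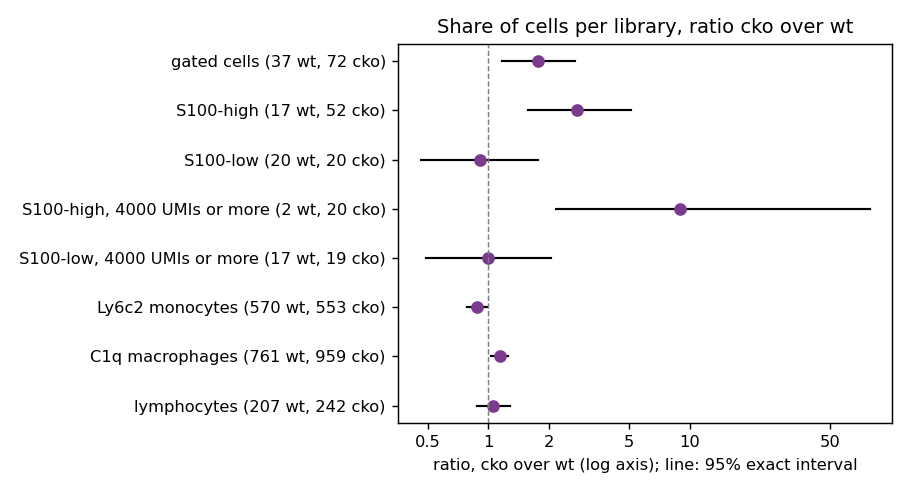
Points give the share of kept cells in the library labelled cko divided by that in wt, on a log axis, with the exact 95% counting interval as a line and the number of cells beside each class. The S100-high ratio of 2.77 and the ratio of 8.94 at 4000 UMIs or more lie to the right of 1, and both S100-low intervals span 1.

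Because the 2 kinds of cell were mixed in different proportions, a comparison of the whole gate carries that mixture. Over the gate, 1361 genes had at least 50 UMIs, of which 25 (1.84%) were at least 2-fold higher and 45 (3.31%) at least 2-fold lower in cko. In S100-high cells alone 519 genes had at least 50 UMIs, with 17 (3.28%) higher and 8 (1.54%) lower, and in S100-low cells 950 genes, with 15 (1.58%) higher and 21 (2.21%) lower. TMM scaling, which corrects for the makeup of the RNA, raised every log2 ratio by 0.26 in the gate and by 0.25 in S100-high cells, so S100-high ratios between -0.25 and 0 turn positive with it. The counts became 56 higher and 17 lower over the gate and 27 higher and 3 lower in S100-high cells. The median log2 ratio was -0.15 over the gate, -0.05 in S100-high cells and 0.04 in S100-low cells.

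The genes named over the gate were also followed in each subset, with no test of the difference between subsets. The 12 genes with the highest lower bounds over the gate were Cxcl3, Prok2, Ccl9, Cd14, Hp, Slc2a3, Oaz2, Por, Wfdc17, Wfdc21, Slpi and Mmp8, and they were chosen over a sum that holds these same cells. In S100-high cells 11 of them had at least 50 UMIs and were compared, and the 3 at least 2-fold higher were Cxcl3, Ccl9 and Oaz2, against 3.28% of all 519 genes. In S100-low cells 9 were compared, and the 2 at least 2-fold higher were Ccl9 and Cd14, against 1.58% of all 950 genes. The 12 with the lowest upper bounds, chosen in the same way, included Lyz2, H2-Eb1, H2-Aa, Igtp, H2-Ab1, Cd74, Ass1, Tgfb1, 2410015M20Rik, Dad1 and Rgs2. In S100-high cells 3 of these were compared, Lyz2, H2-Ab1 and Cd74, of which Lyz2 was at least 2-fold lower, against 1.54% of all 519 genes. In S100-low cells 10 were compared and 5 were at least 2-fold lower, against 2.21% of all 950 genes. The class II genes H2-Aa, H2-Ab1, H2-Eb1 and Cd74, which present antigen on other myeloid cells, had log2 ratios from -1.64 to -1.11 over the gate and from -1.09 to -0.51 in S100-low cells. In S100-high cells H2-Ab1 was at -0.33 and Cd74 at 0.22, both with intervals that span 0, and the other class II genes of the 4 were under 50 UMIs. Tgfb1, which encodes the cytokine TGF-β1, had a log2 ratio of -1.55 (-2.25 to -0.87) over the gate, a value that carries the mixture of subsets. In S100-low cells, with 50 UMIs in wt and 24 in cko, it was -1.22 (-1.98 to -0.49). Outside the gate the ratio was -1.47 in C1q macrophages and -1.55 in Ly6c2 monocytes. In S100-high cells Tgfb1 had 0 UMIs in wt and 6 in cko, too few for a ratio.

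Lyz2 (chr10:117277331-117282321, minus strand, GRCm38, GENCODE annotation) was lower in S100-high cells, at 4337 CPM (258 UMIs) in wt against 1770 CPM (362 UMIs) in cko, a log2 ratio of -1.29 (-1.53 to -1.06). Per cell thinned to 3000 UMIs, wt cells ran from 1 to 34 Lyz2 UMIs with a median of 9, and cko cells from 0 to 20 with a median of 4. The ranges overlapped. S100-low cells gave a log2 ratio of -1.20 (-1.30 to -1.10), and Lyz2 in lymphocytes, which should lack it, went from 1696 to 962 CPM.

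Among the chemokines that neutrophils release, Cxcl3 had a higher ratio than Cxcl2. The intervals of both ratios cover counting error alone, and the difference between the genes was not tested. Cxcl2, a CXCR2 ligand that recruits further neutrophils, was the most abundant chemokine RNA of S100-high cells, at 11346 CPM in wt and 11872 CPM in cko, a log2 ratio of 0.07 (-0.06 to 0.19). Thinned cells ran from 0 to 126 Cxcl2 UMIs with a median of 13 in wt, and from 0 to 146 with a median of 25.5 in cko. Cxcl3, a second CXCR2 ligand, had 9 UMIs in 5 of 17 wt cells and 172 UMIs in 20 of 52 cko cells, at 151 and 841 CPM, a log2 ratio of 2.48 (1.52 to 3.63). Before thinning, the highest cko cells held 36, 26, 19 and 18 of these 172 UMIs. Most cells of both libraries had none after thinning, and the highest cell held 4 UMIs in wt and 26 in cko. In S100-low cells the Cxcl3 log2 ratio was -0.16 (-0.86 to 0.54), and outside the gate it was 0.82 in C1q macrophages and 1.54 in Ly6c2 monocytes.

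The CC chemokines of S100-high cells went both ways. Ccl9, also called MIP-1γ, had 3 UMIs in wt and 65 in cko, a log2 ratio of 2.66 (1.05 to 4.97), with 29.2% of the cko UMIs in 1 cell. Ccl3, also called MIP-1α, was at 622 CPM in wt and 220 CPM in cko, a log2 ratio of -1.50 (-2.16 to -0.83), with 64.9% of the wt UMIs and 31.1% of the cko UMIs in 1 cell each. Ccl6, a ligand of CCR1, was at 2017 and 1335 CPM, a log2 ratio of -0.60 (-0.91 to -0.27). Of the 12 listed chemokine genes, 6 were tested in S100-high cells, with 2 at least 2-fold higher and 1 at least 2-fold lower, against 3.28% and 1.54% of all 519 genes. Their summed level was 15985 CPM in wt and 15990 CPM in cko.

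Il1b, Il1rn and Il1f9 of the IL-1 family were lower in cko. Il1b, which encodes the cytokine IL-1β, was at 10337 CPM in wt and 7584 CPM in cko S100-high cells, a log2 ratio of -0.45 (-0.58 to -0.31), and TMM scaling brought it to -0.20. Per thinned cell, Il1b ran from 1 to 76 UMIs with a median of 29 in wt and from 0 to 78 with a median of 20 in cko. Il1rn, which encodes the IL-1 receptor antagonist, was at 504 and 230 CPM, a log2 ratio of -1.13 (-1.82 to -0.42), with 46.7% of the wt UMIs in 1 cell. With the TMM shift of 0.25 Il1rn was less than 2-fold lower. Il1f9, the gene of IL-36γ, was at 975 and 494 CPM, a log2 ratio of -0.98 (-1.46 to -0.49). Il1r2, the decoy receptor for IL-1, was at 1967 and 1873 CPM with an interval that spans 0. Of 15 listed genes 5 were tested, 1 was at least 2-fold lower and none higher, against 1.54% and 3.28% of all 519 genes, and the summed level of the list was 14724 against 10938 CPM.

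Receptor genes of S100-high cells differed by less than 2-fold where they were tested. Of 23 genes for chemotactic and pattern receptors, among them the gate genes Csf3r and Cxcr2, 16 were tested and none was at least 2-fold different, against 3.28% higher and 1.54% lower of all 519 genes, a count too small to set the list apart. The interval lay below 0 for 6 and above 0 for none, against 62 below and 37 above among all 519 genes. The 6 were Cxcr2, Ccr1, Fpr1 (a receptor for formylated bacterial peptides), C5ar1 (the complement C5a receptor) and the C-type lectins Clec4e and Clec4d, with log2 ratios from -0.55 to -0.45. Under TMM scaling each of the 6 stayed negative, from -0.30 to -0.20, and each interval spanned 0. Csf3r was at 538 CPM in wt and 587 CPM in cko. The LPS co-receptor gene Cd14 was at 5883 and 6327 CPM in S100-high cells, a log2 ratio of 0.11 (-0.07 to 0.28), and at 971 and 2099 CPM in S100-low cells, a log2 ratio of 1.11 (0.84 to 1.39).

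Granule genes of precursor cells were concentrated in 2 cko cells. These cells held 371 and 341 UMIs of Ngp, 99 and 53 of Ltf and 59 and 88 of Camp, and they were also the deepest S100-high cells, at 6530 and 7581 UMIs. Both had 0 UMIs of Cxcl2. Together they carried 1011 of the 1190 Ltf, Camp and Ngp UMIs of cko S100-high cells, and the next cell had 38. In wt the highest cell had 17 and the S100-high total was 41. Over all S100-high cells Ngp had a log2 ratio of 2.69 (2.23 to 3.18), and without the 2 cells it had 0.45 (-0.05 to 0.98). Ltf had no UMI in wt, and its level in cko was at least 14.9-fold higher than the level of 3 UMIs in wt, a value that rests on those 2 cells since Ltf was seen in 3 cko cells. Of 16 granule genes 8 were tested, and the 3 that were at least 2-fold higher were Ngp, Ltf and Camp, against 3.28% of all 519 genes.

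Granule and secreted genes that mature neutrophils still transcribe were spread over more cells. Hp, which encodes haptoglobin, was seen in every S100-high cell, at 2101 CPM in wt and 3530 CPM in cko, a log2 ratio of 0.75 (0.47 to 1.03). Thinned cells ran from 1 to 18 Hp UMIs with a median of 5 in wt and from 1 to 20 with a median of 11 in cko. Mmp8, neutrophil collagenase, had a log2 ratio of 0.20 (-0.12 to 0.54), and Lcn2, lipocalin 2, of -0.09 (-0.27 to 0.10), which TMM scaling turns positive. Slpi, a protease inhibitor, was at 3311 and 4313 CPM, a log2 ratio of 0.38 (0.16 to 0.61). Wfdc17, a small secreted protein with a similar domain, was at 5732 CPM in wt and 9564 CPM in cko, a log2 ratio of 0.74 (0.57 to 0.91). Its thinned counts ran from 2 to 63 with a median of 12 in wt and from 0 to 155 with a median of 17 in cko.

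Of the 12 S100-high genes with the highest lower bounds, Cxcl3, Wfdc17 and Hp are given above. The others were Actb (cytoplasmic actin), Trf (transferrin), Cstb (cystatin B, an inhibitor of cathepsins), Rab11a (a GTPase of recycling endosomes), Gyg (glycogenin, the primer of glycogen synthesis), S100a6, Alox5ap (the activator of 5-lipoxygenase in leukotriene synthesis), Oaz2 and Cebpb. Actb was at 7530 CPM in wt and 12440 CPM in cko, a log2 ratio of 0.72 (0.58 to 0.87), although the thinned medians were 18 in wt and 17.5 in cko. The upper quartiles were 27 and 46.3 UMIs. Cebpb, which encodes C/EBPβ, a factor that drives emergency granulopoiesis, was at 3883 and 5046 CPM, a log2 ratio of 0.38 (0.17 to 0.59), with thinned medians of 9 and 13. Alox5ap was at 2941 and 4000 CPM, a log2 ratio of 0.44 (0.21 to 0.69).

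The summed RNA of interferon-stimulated genes was lower in cko S100-high cells. The 24 listed genes, 22 of them in the files, summed to 3479 CPM (207 UMIs) in wt and 1746 CPM (357 UMIs) in cko, a log2 ratio of -0.995 (-1.25 to -0.74). The minimum of 50 UMIs was met by 3 of them, Isg15, a ubiquitin-like modifier, Irf7, a factor that amplifies the response, and Oasl2. Of these Isg15 was at least 2-fold lower, against 1.54% of all 519 genes. With the TMM shift of 0.25 it was less than 2-fold lower. Isg15 was at 874 and 435 CPM, a log2 ratio of -1.01 (-1.52 to -0.48), with a UMI in 70.6% of thinned wt cells and 40.4% of thinned cko cells against 21.7% and 15.7% of lymphocytes. Irf7 and Oasl2 had log2 ratios of -0.78 and -0.33 with intervals that span 0. Ifi27l2a and Rtp4, also interferon-induced and named by the rule rather than the list, had log2 ratios of -0.95 (-1.38 to -0.51) and -0.82 (-1.33 to -0.31). Per cell the list ran from 0% to 1.08% of UMIs with a median of 0.140% in wt and from 0% to 0.98% with a median of 0.0930% in cko, so the ranges overlapped. The summed list had a log2 ratio of -0.09 (-0.28 to 0.10) in S100-low cells, -0.10 in C1q macrophages, -0.14 in Ly6c2 monocytes and -0.33 in lymphocytes, and the part of free RNA was not tested.

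B2m and Mcl1 were lower as well. B2m, the light chain of class I molecules, was at 2538 CPM in wt and 1716 CPM in cko S100-high cells, a log2 ratio of -0.56 (-0.84 to -0.28). The heavy chain gene H2-D1 was at 3866 and 3530 CPM, with an interval that spans 0, and TMM scaling turns its ratio positive. Of 10 class I presentation genes 3 were tested and none was at least 2-fold different. The interval lay below 0 for 1, B2m, against 62 of all 519 genes. Mcl1, an antiapoptotic gene on which neutrophil survival depends, was at 1395 and 782 CPM, a log2 ratio of -0.83 (-1.23 to -0.43), and its thinned counts ran from 1 to 8 with a median of 5 in wt and from 0 to 9 with a median of 2 in cko. Of 20 survival genes 4 were tested, with none at least 2-fold different and the interval below 0 for 2, Mcl1 and Btg1, against 62 of all 519 genes. Btg1, an antiproliferative gene, had a log2 ratio of -0.33 (-0.58 to -0.07), which TMM scaling brought to -0.08 (-0.33 to 0.18).

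The other genes with the lowest upper bounds in S100-high cells were Gm5483, Cyp4f18, Entpd1, Fth1 and Pla2g7, which encodes a hydrolase of platelet-activating factor. Gm5483, a stefin A family gene with close copies on chromosome 16 among which reads can be split, was at 5765 CPM in wt and 2895 CPM in cko, a log2 ratio of -0.99 (-1.19 to -0.80), and its ratio in S100-low cells was 2.34 (1.81 to 2.91). Cyp4f18, which inactivates leukotriene B4, had a log2 ratio of -1.21 (-1.93 to -0.48). Entpd1, the ectonucleotidase CD39, had a log2 ratio of -1.14 (-1.90 to -0.35). Fth1, ferritin heavy chain, was at 26154 and 19730 CPM, a log2 ratio of -0.41 (-0.49 to -0.32), although its thinned medians were 49 and 50.5.

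**Figure D4:**
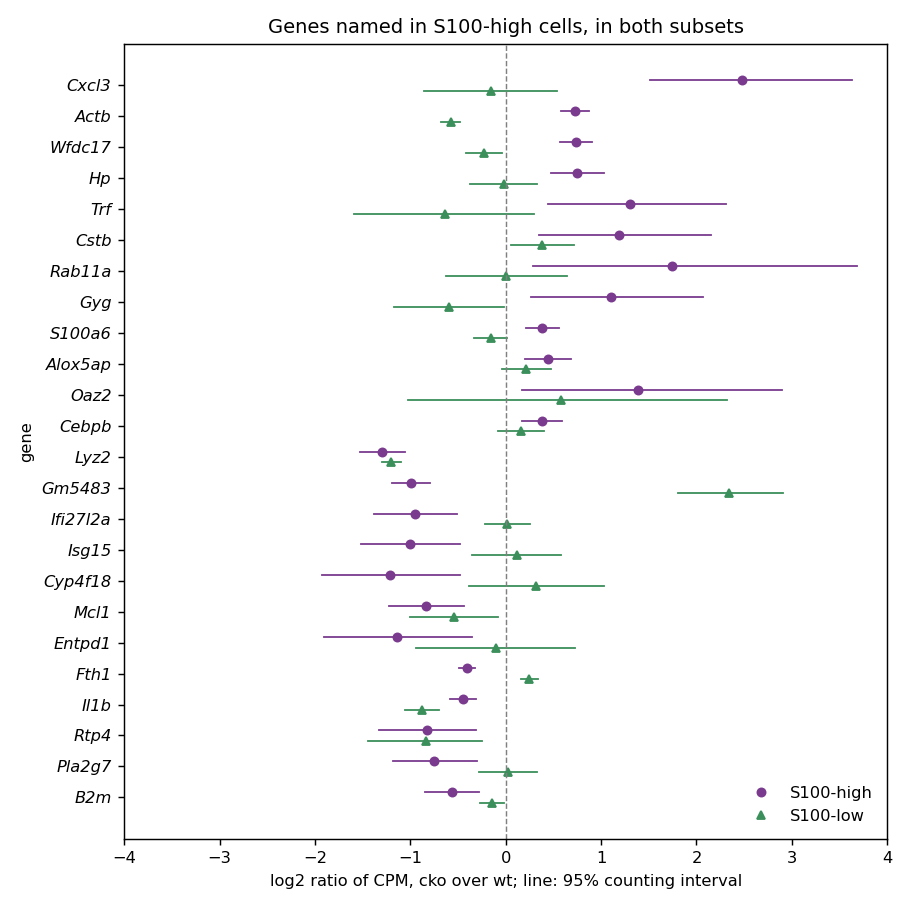
Log2 ratios of CPM, cko over wt (x), for the 12 genes with the highest lower bounds and the 12 with the lowest upper bounds in S100-high cells, with 95% counting intervals as lines; circles are S100-high and triangles S100-low cells. Lyz2, Mcl1, Il1b and Rtp4 are lower in both subsets, and Actb, Gm5483 and Fth1 lie on opposite sides of 0.

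These 24 ratios were also computed at like depth. Among S100-high cells with fewer than 4000 UMIs, 15 in wt and 32 in cko with medians of 3264 and 3486 UMIs, 12 of 12 genes were higher and 12 of 12 lower in cko as before. Cxcl3 had a log2 ratio of 3.12 (1.95 to 4.6) there, Isg15 of -1.31 (-1.93 to -0.69) and Mcl1 of -1.14 (-1.60 to -0.67), while Gyg at 0.91, Oaz2 at 1.11 and Trf at 0.57 had intervals that span 0. The choice of genes used the same cells, so these ratios are a description.

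**Figure D5:**
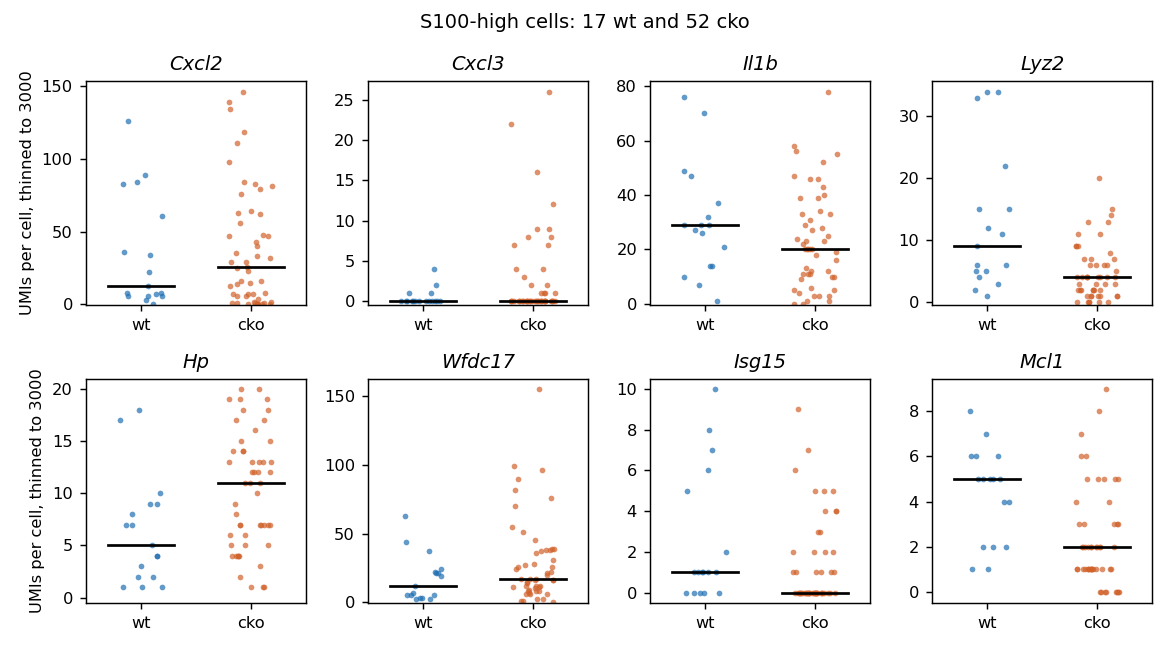
Each point is 1 S100-high cell, 17 in wt and 52 in cko, with its UMIs after thinning to 3000 (y) for 8 genes; the black line is the median, and points are spread sideways for sight alone. Hp medians are 5 and 11, Lyz2 medians 9 and 4 and Mcl1 medians 5 and 2, and the ranges of the libraries overlap in all 8 panels.

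The other lists of S100-high cells are given by their counts and medians, beside 3.28% of all 519 genes at least 2-fold higher and 1.54% at least 2-fold lower, shares that leave counts of 0 or 1 in lists this short with nothing to say about a list. Of the 21 tumor granulocyte and MDSC genes 10 were tested, none at least 2-fold different, and the summed level was 45970 CPM in wt and 47778 CPM in cko. Ptgs2, the gene of cyclooxygenase-2, was at 319 and 337 CPM. The 5 tested NADPH oxidase genes, which encode the enzyme of the oxidative burst, had a median log2 ratio of -0.04, and none was at least 2-fold different. The 11 tested hypoxia and glycolysis genes had a median of 0.19, with Hilpda, a lipid droplet gene, the 1 member at least 2-fold higher and an interval that spans 0. The transcription factors had a median of 0.18 over 9 tested genes, among them Socs3, the feedback inhibitor of G-CSF and IL-6 signalling, at 0.72 (0.12 to 1.37), with 33.3% of the wt UMIs in 1 cell. The Siglec-F neutrophil genes, a set described in lung tumors, had 2 tested members, of which Cstb was at least 2-fold higher and Fcgr4 had a log2 ratio of -0.04. The degranulation and protease list had a median of 0.20 over 7 tested genes, the lipid and eicosanoid list of -0.03 over 6 and the iron and zinc list of -0.02 over 6. Proliferation genes had 1 tested member, Hmgb2, at 0.32 (-0.20 to 0.87), and the immediate-early and heat-shock genes had a median of 0.19 over 7. Of the 20 granulocyte identity genes, which include the rule's own, 19 were tested and none was at least 2-fold different.

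Targets of miR-21 were sparsely covered. Of 19 listed targets 2 reached 50 UMIs in S100-high cells. Btg2 was at 908 CPM in wt and 1022 CPM in cko, a log2 ratio of 0.17 (-0.27 to 0.63), and Tgfbi was at 622 and 572 CPM, a log2 ratio of -0.12 (-0.66 to 0.45), which TMM scaling turns positive. Pdcd4 had 0 UMIs in wt and 1 in cko. The 19 genes summed to 2067 CPM in wt and 2196 CPM in cko. Whether these targets differed was not detectable at this depth.

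In S100-low cells, besides Lyz2 and the class II genes, Il1b was at 4381 CPM in wt and 2390 CPM in cko, a log2 ratio of -0.87 (-1.05 to -0.70). Cxcr2, part of the rule, had a log2 ratio of -1.36 (-2.11 to -0.64) and Lcn2 of -1.10 (-1.50 to -0.71). Retnlg was higher in cko, at 1252 and 3185 CPM, a log2 ratio of 1.35 (1.11 to 1.59), with 34.7% and 28.5% of its UMIs in 1 cell each, as was the lipoprotein gene Apoe, at 613 and 1864 CPM, a log2 ratio of 1.60 (1.27 to 1.95). Gzma, a granule protease of cytotoxic lymphocytes, had all of its 74 UMIs in 1 cko cell. Macrophage markers summed to 2325 CPM in wt and 3871 CPM in cko and monocyte markers to 10774 and 12923 CPM in S100-low cells. Of 6 tested macrophage markers 1, Apoe, was at least 2-fold higher, against 1.58% of all 950 genes. The interval lay above 0 for Apoe alone and below 0 for 1 other. Dendritic cell markers summed to 23233 CPM in wt and 14725 CPM in cko, a log2 ratio of -0.66 (-0.73 to -0.58). The 4 tested members are the class II genes themselves. Each had its interval below 0, against 74 of all 950 genes, and 1 was at least 2-fold lower, against 2.21%. The part of these cells in the differences was not tested.

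Markers of other cells were scarce in S100-high cells of both libraries. Macrophage markers made up 605 and 685 CPM with cell medians of 0.0524% and 0.0598% of UMIs, and C1qa, C1qb and C1qc together were at 151 and 191 CPM against 137 and 195 CPM in lymphocytes. Of 10 monocyte markers 7 were seen and 2 tested, Ly6c2 and Plac8, with both intervals spanning 0. Dendritic cell markers summed to 1042 and 880 CPM, and T and NK cell markers to 67.2 and 73.3 CPM with no UMI in 13 of 17 and 40 of 52 cells. B and plasma cell markers had no UMI, mast cell, basophil and eosinophil markers had 0 and 4.89 CPM, and tumor and epithelial markers had 16.8 and 4.89 CPM.

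The S100-high cells varied among themselves in Cxcl2. Across the 69 cells, 164 genes with a mean of at least 2 thinned UMIs were ranked by Spearman correlation with Cxcl2 as a description, with no test, since cells share library and depth. The closest to Cxcl2 were Fth1 (rho 0.59), Ier3 (0.59), an early response gene, Srgn (0.56), the serglycin proteoglycan, Nfkbia (0.55), the NF-κB inhibitor IκBα, Cd14 (0.53) and Irg1 (0.50), which makes itaconate. The most opposed were Tmsb4x (-0.59), a thymosin that binds actin monomers, Arhgdib (-0.54), Hp (-0.54), Wfdc21 (-0.50), S100a8 (-0.49) and Anxa1 (-0.49), which encodes annexin A1. All 12 had the same sign within each library, but they were chosen over these same cells, so this gives no further check. S100a8, part of the rule, had a rho of -0.18 within wt and -0.55 within cko. Cxcl3 had a rho of 0.38 over all cells, -0.002 within wt and 0.49 within cko.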

How the data were processed

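Droplet single-cell RNA-Seq (10x Genomics 3′ version 2 chemistry) of tumor leukocytes was deposited as 1 matrix for each genotype. Every library came from 3 pooled mice. The counts deposited by the authors are unnormalized UMIs per gene and cell, aligned to mm10 and counted with Cell Ranger per the submitters' processing notes, which also name Seurat. No versions are given in the sources used here. The matrices held 27998 genes, 2449 and 2718 cells, and between 3184 and 159109 UMIs per cell.

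Cells with over 10% mitochondrial UMIs were left out (4 in wt and 14 in cko), and the gate was applied to the rest. UMIs were summed over the cells of a class in each library, and CPM, log2 ratios and shares were computed with exact 95% intervals (Poisson, conditional binomial and Clopper-Pearson), which cover counting error only. With 1 library per group there was no test. A gene was compared when its UMIs in the class reached 50 in the 2 libraries together, and a ratio of at least 2-fold was called. Genes were named by the bounds of their intervals, 12 per direction, leaving out mitochondrial, ribosomal, gate and sex-linked genes and genes with over 25% of a library's UMIs in 1 cell where that library had at least 20. Members of the gene lists were named as examples of their list. A fold against 0 UMIs was computed against 3 UMIs in that library. To compare how many cells held a gene, every cell was thinned to 3000 UMIs. Scrublet's automatic threshold marked 0 and 5 cells and did not work. Removal of the highest Scrublet scores at the loading rate (1.96% and 2.17% of cells) took 2 wt and 4 cko gated cells, all S100-low. The members and the 27 gene lists were chosen with earlier results of these data known, and the S100-high and S100-low subsets were set after their values had been seen. The calculation of ratios and intervals was tested on simulated data. Gene positions are from GENCODE release M21 and sequences from RefSeq. The promoters of Hp and Wfdc21 and the Mir21a counts were not analysed here, and a few genes of the lists and named sets are not reported here. Tools were Python 3.11.15, numpy 2.4.6, scipy 1.17.1, pandas 2.3.3, scanpy 1.11.5 and matplotlib 3.10.9.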

Additional observations from a re-analysis of the deposited data

Results flagged for a closer look

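In 11 of 438 genes tested in both subsets, the interval of the log2 ratio (cko over wt) lay above 0 in one subset and below 0 in the other. The difference between the subsets was not tested. The ratio was higher in S100-high than in S100-low cells for the cytoskeletal gene Actb (0.72 and -0.58) and the SH3-domain gene Sh3bgrl3 (0.48 and -0.32). The same held for Gyg (1.10 and -0.59), Ifitm6 (0.39 and -0.52), Wfdc17 (0.74 and -0.23) and Socs3 (0.72 and -1.02). It was lower in S100-high than in S100-low cells for Gm5483 (-0.99 and 2.34), Ccl6 (-0.60 and 0.34) and Fth1 (-0.41 and 0.25). The Fc receptor gamma chain gene Fcer1g (-0.23 and 0.23) and the ribosomal gene Rpl37 (-0.52 and 0.20) were also lower. TMM scaling moves Fcer1g in S100-high cells above 0, since its ratio lies within the shift of 0.25. With that shift the Rpl37 interval in S100-high cells spans 0. In S100-low cells TMM scaling lowers every log2 ratio by 0.05, and the intervals of Rpl37 and Ccl6 there then span 0. In an alternative chosen after seeing the data, the cell of each library with most UMIs of a gene was left out, and 6 of the 11 kept intervals on opposite sides. Ifitm6 in S100-low cells, with 39.1% of its wt UMIs in 1 cell, then had a ratio of -0.0061 (-0.40 to 0.39), and Gyg, with 25.8%, had -0.36 (-1.01 to 0.28). Wfdc17 at -0.14 (-0.36 to 0.07) and Ccl6 at 0.35 (-0.02 to 0.72) in S100-low cells and Fcer1g at -0.18 (-0.38 to 0.03) in S100-high cells also had intervals that span 0. Actb in S100-low cells, with 36.6% of its wt UMIs in 1 cell, went from -0.58 to -0.25 (-0.37 to -0.13). Fth1 in S100-high cells went from -0.41 to -0.21 (-0.30 to -0.12).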

How the results depend on the processing

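No paired analysis was possible because each group has 1 library, and no library could be left out. The log2 ratio of the gated share was 0.82, and it was 0.20 at 5000 UMIs or more, 1.47 for S100-high cells alone and -0.15 for S100-low cells alone. The 25 higher genes over the gate became 41 at 4000 UMIs or more, 56 with TMM, 49 with size factors, 99 and 11 at a minimum of 20 and 100 UMIs, and 15 in S100-low cells. The 45 lower genes became 18 at 5000 UMIs or more, 17 with TMM, 21 with size factors, 80 with a mean over cells, 22 without the top cell of each gene, 193 and 13 at 20 and 100 UMIs, 8 in S100-high cells and 21 in S100-low cells. The dendritic cell median was -1.56 with the stricter gate, -1.05 with at most 2 C1q UMIs and -1.01 at 5000 UMIs or more. It was -1.08 with TMM, -1.11 with size factors and -0.79 in S100-low cells. With 2 genes tested, it was -0.041 without monocyte-marked cells and -0.058 in S100-high cells. The proliferation median was 0.19 over 3 genes with the looser gate and 1.43 over 4 genes at 20 UMIs. Over 2 genes it was 0.15 with at most 2 C1q UMIs and -0.00601 without the highest Scrublet scores. It was 0.12 without top cells and 0.065 without lymphocyte-marked cells, also over 2 genes. The identity median was 0.77 at 4000 UMIs or more, -0.24 in S100-high and -0.023 in S100-low cells, and the monocyte median 0.045 at 5000 UMIs or more and 0.26 in S100-low cells. Without monocyte-marked cells 1 tested gene each gave -0.66 for monocyte markers, 1.56 for Siglec-F genes and 1.13 for macrophage markers. The monocyte list holds the genes by which those cells were left out. The medians were -1.13 over 2 interferon genes, -1.16 over 3 class I genes, 1.06 over 6 chemokines and 0.21 over 6 lipid genes. In S100-low cells they were 0.067 for granule, -0.23 for MDSC and 0.020 for class I genes. Signs reversed at 5000 UMIs or more for Cxcl3 (-0.27) and Wfdc17 (-0.14), without monocyte-marked cells for H2-Ab1 (0.27) and Tgfb1 (1.10), in S100-high cells for Cd74 (0.22), and in S100-low cells for Cxcl3 (-0.16), Hp (-0.023), Wfdc17 (-0.23) and Wfdc21 (-0.18). Of the other values of the genes named over the gate, 273 moved by less than their counting interval and 102 by more with their sign kept. For the 24 genes named in S100-high cells these counts were 99 and 21, and no sign reversed. The causes were not tested. The depth floor limits every count of S100-high cells, and genes under 50 UMIs in a set of cells were left out of its counts and medians, while a gene named over the gate keeps its ratio in smaller sets of cells whatever its UMIs there. The subset, lymphocyte, under-4000-UMI and granule-cell settings were chosen after seeing the data.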
